A study of Mus musculus with 35 samples.

Results

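The 53 genes described here form the transcriptional program of G2 and mitosis. They were taken by name from a list drawn up with earlier results of these data known. The list covers the cyclin-Cdk1 engine, mitotic kinases, kinetochores, the spindle, anaphase and cytokinesis. All 53 genes were found among the 55487 mouse genes of each count table. Every one of them passed the filter on low counts in both assays. The cells were MLL-AF9 acute myeloid leukemia (AML) cells, marked by GFP, grown out ex vivo from 1 terminally ill mouse and transplanted into male recipients 8 to 10 weeks old, so all groups derive from a single leukemia. The cells carried a guide RNA against Ogfod1 (sgOgfod1), which encodes a prolyl hydroxylase of a ribosomal protein, or a scrambled guide (sgScramble). Mice of the vehicle groups received PBS and a standard amino acid diet. Treated mice received a diet free of branched-chain amino acids (BCAA) together with 5+3 chemotherapy, that is, 5 days of cytarabine (100 mg/kg) with doxorubicin (3 mg/kg) on the first 3. The diet was never given without the drugs, and what each did cannot be told apart. Viable GFP+ cells were sorted from bone marrow at maximum response, and each lysate gave a full-length mRNA library (Smart-seq2) and, for some mice, a ribosome footprint library (RNase I digestion, sucrose cushion).

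With sgScramble, the mRNA set held 5 vehicle and 7 treated mice, and with sgOgfod1 it held 5 and 6. The footprint set held 3 and 4 of these sgScramble mice and 3 and 2 of the sgOgfod1 mice. The labels call them biological replicates. The total count per library ran from 31.9 to 142.7 M (mega; median 56.1 M) for mRNA and from 5.7 to 14.6 M (median 9.25 M) for footprints. A member's own count ran from 236 to 39374 in an mRNA library (median 6386) and from 28 to 7647 in a footprint library (median 423), and none was 0. Levels are given in CPM, counts per M (mega) counts of the library, on library sizes scaled by edgeR's TMM method. Differences are log2 fold changes ± SE from edgeR's quasi-likelihood test, and a gene was called where its p, adjusted over all genes of the assay, was under 0.05. In bulk samples, fewer cells in a given phase or of a given type and less RNA per cell cannot be told apart.

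Genes of this group are silent in resting cells and are switched on late in the cell cycle. In quiescence their promoters are held by the DREAM complex, which in cycling cells gives way to the B-MYB-MuvB complex and FOXM1. A pair of promoter elements recurs in them, the cell cycle genes homology region (CHR), which the MuvB core binds near the transcription start site, and the CCAAT box, bound by NF-Y. The encoded proteins then drive entry into mitosis, build the spindle, hold anaphase back until every kinetochore is attached, and divide the cell.

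Promoter windows were read for the members from 250 bases before to 50 bases after the start site (RefSeq, GRCm38.p6), and 44 of the 53 were matched. The CHR was searched as TTTGAA or TTCGAA and the CCAAT box as CCAAT, each on both strands, where they read TTCAAA or TTCGAA and ATTGG in reverse. A CHR stood in 33 of the 44 windows (75%), against 19.4% of 27025 promoter windows of the same length. A CCAAT box stood in 34 (77.3%, against 37.9%), and both motifs stood together in 29 (65.9%, against 7.7%). In 30 members (68.2%) the CHR lay within 60 bases of the start site, against 5.86% of all windows, and 24 (54.5%) held 2 or more CCAAT boxes, against 12.2%. The 5 windows below show these arrangements in members whose data are described further on. Capitals mark the motifs.
Kif23, a kinesin of cytokinesis, chr9:61946750-61947049, minus strand, 1 CCAAT box in reverse and 1 CHR at the start site: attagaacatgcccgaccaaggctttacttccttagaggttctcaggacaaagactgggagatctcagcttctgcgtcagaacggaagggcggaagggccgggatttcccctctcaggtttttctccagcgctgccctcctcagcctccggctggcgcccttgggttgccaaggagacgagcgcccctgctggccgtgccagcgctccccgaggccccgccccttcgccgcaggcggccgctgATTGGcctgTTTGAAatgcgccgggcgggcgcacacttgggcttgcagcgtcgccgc
Kif11, the plus-end motor of the bipolar spindle, chr19:37376132-37376431, plus strand, 1 of each in reverse: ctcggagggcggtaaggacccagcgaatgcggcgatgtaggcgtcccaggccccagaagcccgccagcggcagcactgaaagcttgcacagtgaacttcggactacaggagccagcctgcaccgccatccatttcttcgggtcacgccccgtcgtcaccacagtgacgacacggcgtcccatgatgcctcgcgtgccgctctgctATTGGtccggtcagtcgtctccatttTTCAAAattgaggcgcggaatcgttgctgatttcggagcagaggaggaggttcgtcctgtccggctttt
Cdc20, the activator of the anaphase-promoting complex, chr4:118437294-118437593, minus strand, 2 CCAAT boxes around 1 CHR: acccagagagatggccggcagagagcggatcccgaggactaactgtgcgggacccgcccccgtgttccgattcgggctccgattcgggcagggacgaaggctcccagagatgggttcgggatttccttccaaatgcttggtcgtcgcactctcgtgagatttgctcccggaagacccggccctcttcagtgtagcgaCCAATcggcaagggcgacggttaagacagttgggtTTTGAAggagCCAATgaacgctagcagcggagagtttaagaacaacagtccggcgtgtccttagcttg
Ube2c, the ubiquitin-conjugating enzyme of that complex, chr2:164769679-164769978, plus strand, 6 CCAAT boxes, 2 of them overlapping on opposite strands, and 1 CHR in reverse: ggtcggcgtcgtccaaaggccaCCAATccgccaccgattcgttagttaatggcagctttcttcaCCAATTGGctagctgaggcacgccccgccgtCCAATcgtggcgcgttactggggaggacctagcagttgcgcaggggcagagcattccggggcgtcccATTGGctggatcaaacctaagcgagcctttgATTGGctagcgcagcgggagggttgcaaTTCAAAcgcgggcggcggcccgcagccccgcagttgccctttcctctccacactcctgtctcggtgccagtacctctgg
Mad2l1, a checkpoint protein, chr6:66534971-66535270, plus strand, with neither motif in the window: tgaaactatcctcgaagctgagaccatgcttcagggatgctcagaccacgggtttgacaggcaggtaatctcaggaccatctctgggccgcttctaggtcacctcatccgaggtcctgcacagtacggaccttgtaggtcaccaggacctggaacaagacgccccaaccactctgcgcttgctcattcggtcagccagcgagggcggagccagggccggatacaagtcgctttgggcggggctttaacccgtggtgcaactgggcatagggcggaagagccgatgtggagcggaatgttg

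**Figure D1:**
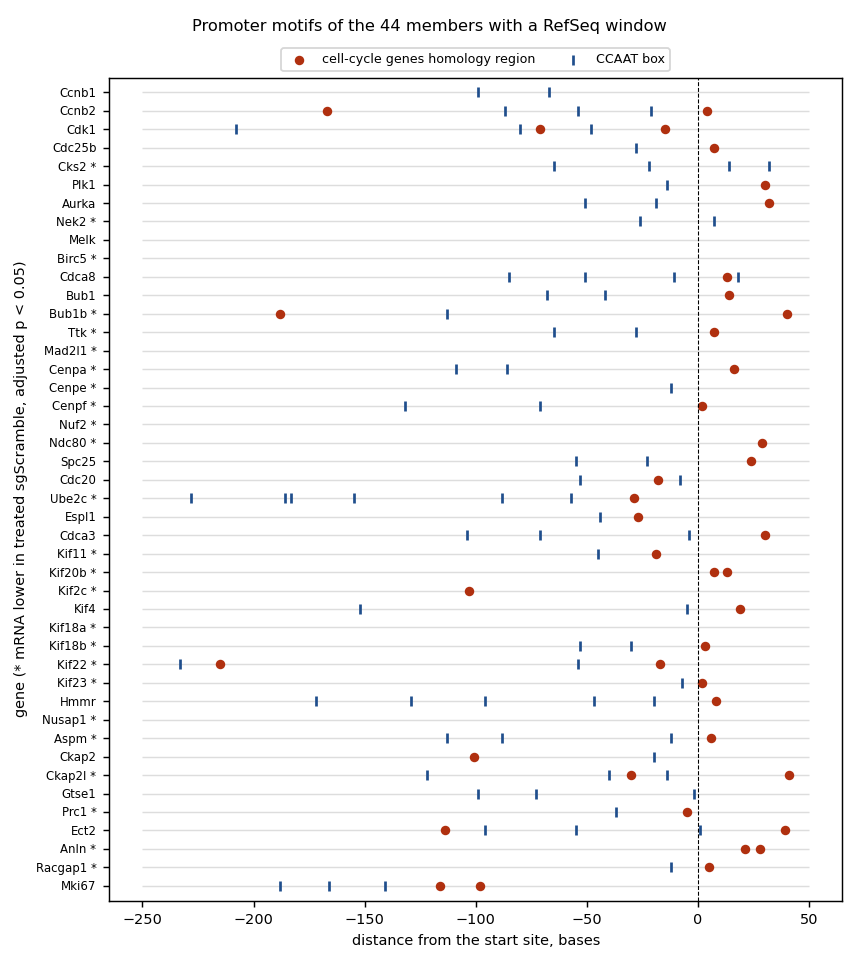
Distance of each CHR (dots) and CCAAT box (ticks) from the transcription start site (x axis, bases) in the promoter windows of the 44 matched members (y axis, asterisk where mRNA fell in treated sgScramble mice). CHR matches gather within 60 bases of the start site in 30 of 44 windows, and CCAAT boxes lie mostly upstream of it.

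Of the 25 matched members whose mRNA fell in treated sgScramble cells, 17 held a CHR (68%), and of the 19 others, 16 did (84.2%). The 6 windows with neither motif included 5 members whose mRNA fell. These shares are descriptions of letters in a window and are given without a test.

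Summed over the 53 members, mRNA stood between 7452 and 8338 CPM in vehicle sgScramble mice and between 7252 and 8189 CPM in vehicle sgOgfod1 mice. The 7 treated sgScramble mice, replicates 1 to 7, gave 5977, 5982, 5765, 4621, 6388, 4416 and 4392 CPM, every one below every vehicle mouse. The 6 treated sgOgfod1 mice gave 5025, 5957, 5587, 8405, 8083 and 7578 CPM. They fell into separate ranges that followed the library numbers in the labels, since replicates 1 to 3 carry numbers below 17 and replicates 4 to 6 numbers above it. Replicates 1 to 3 lay within the range of treated sgScramble mice, and replicates 4 to 6 within or just above the range of vehicle mice. In these treated sgOgfod1 mice, summed mRNA of 40 DNA replication and G1/S genes split likewise. It was 4714 to 6475 CPM in replicates 1 to 3 and 6969 to 7236 CPM in replicates 4 to 6. The labels do not say what the library numbers mark. Both footprint libraries of treated sgOgfod1 cells came from replicates 4 and 5, so each footprint result on that group rests on the later-numbered mice. Their footprint sums were 3985 and 3935 CPM, against 3043 to 3412 CPM in vehicle sgScramble, 3227 to 3901 CPM in vehicle sgOgfod1 and 2462 to 2875 CPM in treated sgScramble mice.

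**Figure D2:**
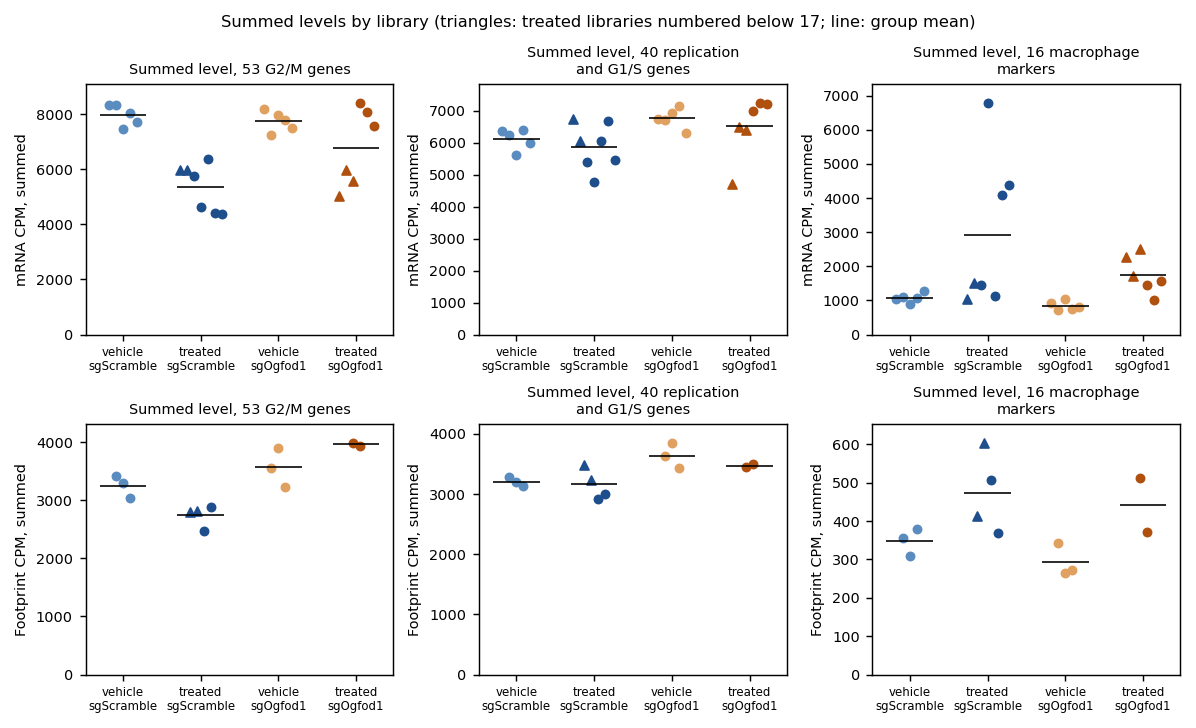
Summed level in each library (y axis, CPM, from 0) of the 53 members, the 40 replication and G1/S genes and the 16 macrophage markers, by group (x axis), for mRNA (top) and footprints (bottom); triangles are treated libraries numbered below 17 and lines are group means. Treated sgScramble mRNA sums of the members (4392 to 6388 CPM) lie below all vehicle sums, and treated sgOgfod1 mRNA sums split into 5025 to 5957 and 7578 to 8405 CPM.

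The guide was checked on Ogfod1 itself, whose footprints stood at 1.44 to 2.97 CPM in the sgOgfod1 mice and 12.3 to 17.5 CPM in the sgScramble mice. Its mRNA was 8.57 to 11.7 CPM in vehicle sgOgfod1 against 19.7 to 24.9 CPM in vehicle sgScramble mice, and 3.75 to 13.0 CPM against 12.3 to 31.6 CPM under treatment, where the ranges overlapped. The leukemia genes Hoxa9 and Meis1 were present throughout, with group medians of mRNA of 175 to 304 CPM and 132 to 197 CPM. Of 10 leukemia markers, 2 were called lower and 2 higher in mRNA of treated sgScramble mice, and 4 lower and 1 higher in treated sgOgfod1 mice. Kit and Cd34, surface proteins of immature cells, fell in both (-1.94 ± 0.46 and -1.81 ± 0.44 with sgScramble, -1.98 ± 0.48 and -2.55 ± 0.47 with sgOgfod1), and Spi1, a myeloid transcription factor, rose in both (0.89 ± 0.23 and 0.82 ± 0.23). The summed mRNA of these 10 genes had group medians of 2584 CPM in vehicle and 3307 CPM in treated sgScramble mice. Markers of mature myeloid cells moved with treatment. Summed mRNA of 14 neutrophil markers was 6807 to 16919 CPM in vehicle mice and 15649 to 83263 CPM in treated mice, and 11 of the 14 were called higher in treated sgScramble mice. Of 16 tissue macrophage markers, 15 were called higher in the same comparison. Their summed mRNA was 708 to 1268 CPM in vehicle mice, where Marco, Timd4 and Vsig4 were at 0 in at least 1 library, and 1003 to 2521 CPM in treated sgOgfod1 mice. The sum was highest in treated sgScramble replicates 4, 6 and 7, at 6789, 4090 and 4385 CPM, which are also the libraries with the lowest sums of mitotic genes. In mRNA of treated sgOgfod1 mice, macrophage and neutrophil markers were called higher too, among them C1qa, Cd5l, Lcn2 and Wfdc21. Adgre1, a macrophage marker, was called lower in treated sgOgfod1 than in treated sgScramble mRNA (-1.25 ± 0.24, adjusted p = 0.0166). In footprints, summed neutrophil markers were 3121 to 5625 CPM in vehicle, 8360 to 18394 CPM in treated sgScramble and 6927 to 16810 CPM in treated sgOgfod1 mice, and summed macrophage markers 265 to 380, 370 to 604 and 371 to 511 CPM. Of 11 tested erythroid markers, 1 was called lower in mRNA of treated sgScramble mice and 6 in treated sgOgfod1 mice. Within treated sgOgfod1 mRNA, marker sums also split with the library numbers. Erythroid markers gave 46.8 to 114 CPM in replicates 1 to 3 and 150 to 181 CPM in replicates 4 to 6, and macrophage markers 1714 to 2521 and 1003 to 1566 CPM. The part of these markers in the split of the mitotic sums was not tested.

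Under treatment of sgScramble leukemia cells, mitotic genes fell in mRNA and in footprints. Of the 53 members, 30 were called lower in mRNA and 0 higher, against 4.34% of 21474 tested genes called lower and 8.6% higher. In footprints, 26 members were called lower and 0 higher, against 7.44% of 18290 genes lower and 8.12% higher. The median change was -0.52 in mRNA, from -1.30 for Aspm to 0.16 for Gtse1, while the median over all genes was -0.0059. In footprints the members' median was -0.31 against -0.011. Only Gtse1, a microtubule-binding regulator of p53, had an mRNA change above 0, which did not pass the test (adjusted p = 0.595). All treated mice stood below all vehicle mice in 32 members for mRNA, against 6.35% of all tested genes, and in 32 for footprints, against 16.1%. The mRNA and footprint calls were shared by 17 members, 56.7% of the mRNA calls and 65.4% of the footprint calls: Aurkb, Bub1b, Ckap2l, Foxm1, Kif11, Kif18a, Kif18b, Kif22, Kif23, Kif2c, Ndc80, Nek2, Nuf2, Nusap1, Prc1, Racgap1 and Ube2c.

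The mRNA count depended on which treated libraries entered. Without the 3 treated sgScramble libraries richest in macrophage markers, 10 members were called lower with a median of -0.35, against 2.71% of genes. With treated libraries numbered below 17 alone, 10 were called lower with a median of -0.37, against 1.33%. With those numbered 17 and up alone, 40 were called lower, against 7.03%. The footprint count was 16 without vehicle sgScramble replicate 2 and 15 without vehicle sgScramble replicate 3. The part of neutrophil and macrophage RNA in these differences was not tested.

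**Figure D3:**
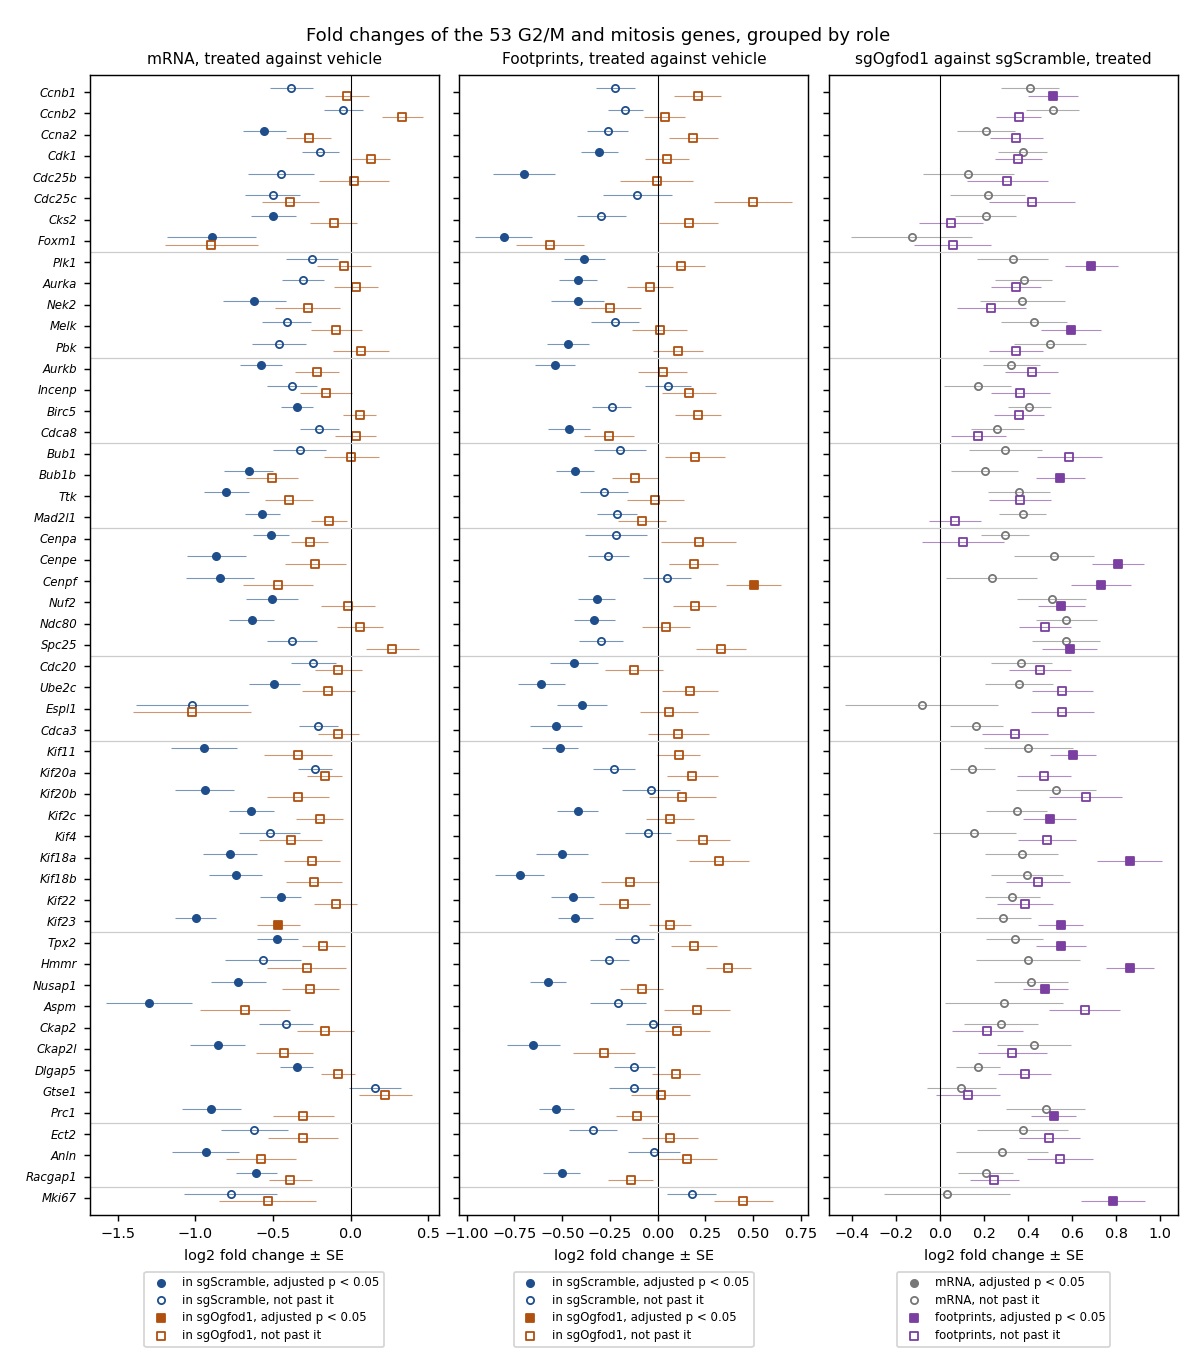
Log2 fold change ± SE (x axis) of each member (y axis, grouped by role) for treatment in mRNA and in footprints of both genotypes, and for sgOgfod1 against sgScramble under treatment in both assays; filled symbols have an adjusted p under 0.05. Treatment changes in sgScramble mRNA lie below 0 in 52 of 53 members, and genotype differences in treated footprints lie above 0 in all 53.

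The cyclin-Cdk1 engine, which phosphorylates the substrates of mitotic entry, had 3 of 8 members called lower in mRNA (Ccna2, Cks2 and Foxm1) and 3 in footprints (Cdk1, Cdc25b and Foxm1). Ccna2, the cyclin of S phase and early mitosis, measured 514, 505, 437, 438 and 454 CPM of mRNA in vehicle sgScramble mice and 233 to 411 CPM (median 332) in the treated ones. Every treated mouse lay below every vehicle mouse, and the change was -0.56 ± 0.14 (adjusted p = 0.00969). Cks2, a small subunit that docks Cdk1 to its substrates, measured 91.4, 120.1, 85.1, 81.7 and 111 CPM in vehicle and 47.4 to 97.4 CPM (median 70.9) in treated sgScramble mice, and these ranges overlapped. Its change was -0.50 ± 0.15 (adjusted p = 0.0251). Foxm1, the transcription factor of the program itself, changed by -0.89 ± 0.29 in mRNA and -0.81 ± 0.15 in footprints, both called. Ccnb1, the cyclin that activates Cdk1 at mitotic entry, was not called in either assay under treatment, with -0.38 and -0.22. Its footprints were 86.2, 80.3, 78.8 and 92.8 CPM with sgScramble and 117 and 125 CPM with sgOgfod1 under treatment. Both sgOgfod1 values stood above all 4 others, by 0.51 ± 0.11 (adjusted p = 0.0297). Ccnb1 and Ccnb2 have a named pseudogene each, so reads could have been split between copies.

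Of 5 mitotic kinases, 1 was called lower in mRNA (Nek2) and 4 in footprints. Nek2, which splits the centrosomes, measured 96.5, 83.1, 81.6, 89.9 and 81.5 CPM of mRNA in vehicle sgScramble mice and 24.7 to 72.8 CPM (median 59.5) in the treated ones. The groups did not overlap, and the change was -0.62 ± 0.20 (adjusted p = 0.0442). The mRNA call was lost in 14 of the 23 fits that left out 1 library, and its footprint call in 8 of 12. Plk1, the polo kinase of mitotic entry and spindle assembly, had footprints of 68.4, 75.5 and 64.8 CPM in vehicle sgScramble mice, then under treatment 55.6, 54.2, 47.1 and 56.02 CPM with sgScramble and 90.5 and 81.1 CPM with sgOgfod1. Treated sgScramble mice lay lowest without overlap, by -0.38 ± 0.11 from vehicle (adjusted p = 0.024), and treated sgOgfod1 mice stood 0.69 ± 0.12 above them (adjusted p = 0.0126). Its mRNA change of -0.25 was not called. Pbk, a kinase active in mitosis, had footprints of 36.3, 38.5 and 33.8 CPM in vehicle and 26.8, 24.5, 24.1 and 28.9 CPM in treated sgScramble mice, with no overlap (-0.47 ± 0.11, adjusted p = 0.00906). Melk, a kinase expressed with these genes, had footprints of 19.8, 23.1, 18.1 and 19.4 CPM with sgScramble and 28.4 and 32.5 CPM with sgOgfod1 under treatment (0.59 ± 0.14, adjusted p = 0.0393), a call lost in 9 of the 12 fits without 1 library. The treatment change of Melk was not called in either assay.

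The chromosomal passenger complex, which corrects faulty attachments and guides cytokinesis, had 2 of 4 members called lower in mRNA and 2 in footprints. Aurkb, its kinase, measured 193, 192, 179, 207 and 173 CPM of mRNA in vehicle sgScramble mice and 85.4 to 162 CPM (median 129) in the treated ones. The groups did not overlap in mRNA (-0.58 ± 0.14, adjusted p = 0.00646) or in footprints (-0.54 ± 0.11, adjusted p = 0.00353). Birc5 (survivin), the subunit that anchors the complex, measured 141, 167, 140.2, 148 and 138 CPM in vehicle and 107 to 134 CPM (median 110.5) in treated sgScramble mice. It also showed no overlap in mRNA (-0.35 ± 0.10, adjusted p = 0.0251), and its footprint change of -0.24 was not called. Cdca8 (borealin) was called lower in footprints alone (-0.46), and the scaffold Incenp in neither assay.

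Spindle checkpoint genes, whose products hold anaphase until attachment is complete, had 3 of 4 members called lower in mRNA and 1 in footprints. Ttk (Mps1), the kinase that starts the checkpoint signal, measured 103, 97.4, 80.6, 89.5 and 93.8 CPM of mRNA in vehicle sgScramble mice and 38.99 to 62.96 CPM (median 55.2) in the treated ones. All treated mice were lower (-0.80 ± 0.15, adjusted p = 0.00091). Mad2l1, which binds Cdc20, measured 229, 248, 186, 202 and 213 CPM in vehicle and 127 to 182 CPM (median 145) in treated sgScramble mice, again without overlap (-0.57 ± 0.11, adjusted p = 0.00178), and it is the member printed above with no CHR or CCAAT box in its window. Bub1b (BubR1), a subunit of the complex that inhibits anaphase, was called in both assays (-0.66 ± 0.16 in mRNA, -0.43 ± 0.10 in footprints). Its footprints were 95.5, 88.2 and 83.5 CPM in vehicle sgScramble mice, then under treatment 68.8, 68.3, 60.8 and 65.8 CPM with sgScramble and 102 and 90.1 CPM with sgOgfod1. The last group stood above the treated sgScramble mice by 0.55 ± 0.11 (adjusted p = 0.0212).

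Kinetochore and centromere genes had 5 of 6 members called lower in mRNA and 2 in footprints. Cenpe, the kinesin that brings chromosomes to the metaphase plate, measured 173, 180.1, 163, 182 and 169 CPM of mRNA in vehicle sgScramble mice and 65.1 to 115 CPM (median 112) in the treated ones. The groups did not overlap (-0.86 ± 0.19, adjusted p = 0.00386). Cenpf, a large protein of the outer kinetochore, measured 115, 118, 119, 119.8 and 118 CPM in vehicle and 38.7 to 89.4 CPM (median 78.6) in treated sgScramble mice (-0.84 ± 0.22, adjusted p = 0.0115), while its footprints, 67.9, 59.7 and 57.7 CPM in vehicle and 69.3, 65.3, 51.8 and 69.2 CPM in treated mice, overlapped. Ndc80 and Nuf2, partners in the rod that grips the microtubule, were called in both assays. Ndc80 measured 123, 124, 103, 115 and 126 CPM of mRNA in vehicle and 55.8 to 98.97 CPM (median 77.1) in treated sgScramble mice, without overlap (-0.64 ± 0.14, adjusted p = 0.00473). Nuf2 mRNA changed by -0.51 ± 0.17 (adjusted p = 0.0452), its groups overlapped, and 13 of the 23 fits without 1 library lost the call. In footprints the calls of Ndc80 and Nuf2 were lost in 7 and 6 of the 12 such fits.
Footprints of 4 of these 6 genes were called higher in treated sgOgfod1 than in treated sgScramble mice. Cenpe footprints were 57.6, 60.7, 58.1 and 65.2 CPM with sgScramble and 107 and 105 CPM with sgOgfod1 under treatment, a difference of 0.81 ± 0.12 (adjusted p = 0.00816). Cenpf gave 109 and 103 CPM in treated sgOgfod1 mice and differed by 0.73 ± 0.14 (adjusted p = 0.0135). Nuf2 gave 42.7, 38.1, 42.2 and 40.2 CPM with sgScramble and 63.8 and 55.7 CPM with sgOgfod1 (0.55 ± 0.11, adjusted p = 0.0163). Spc25, another subunit of that rod, gave 19.4, 19.3, 17.96 and 22.2 CPM and 31.6 and 27.7 CPM in the same order (0.59 ± 0.12, adjusted p = 0.0242). In each of the 4 genes both treated sgOgfod1 values lay above all treated sgScramble values.

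Genes of anaphase and mitotic exit had 4 of 4 members called lower in footprints and 1 in mRNA. Ube2c, whose promoter above holds 6 CCAAT boxes, had footprints of 68.1, 74.5 and 61.7 CPM in vehicle and 46.9, 41.5, 36.8 and 53.04 CPM in treated sgScramble mice, with no overlap (-0.61 ± 0.12, adjusted p = 0.00417). Its mRNA groups overlapped, with a change of -0.49 ± 0.16 (adjusted p = 0.0478), a call lost in 17 of the 23 fits that left out 1 library. Espl1 (separase), the protease that cuts cohesin, had footprints of 28.2, 28.6 and 23.5 CPM and 19.6, 22.999, 17.8 and 20.8 CPM (-0.40 ± 0.13, adjusted p = 0.0479, lost in 5 of 12 fits without 1 library), and an mRNA change of -1.02 that was not called. Cdc20 and Cdca3, an F-box-like trigger of mitotic entry, changed by -0.44 and -0.53 in footprints. None of the 4 was called higher in treated sgOgfod1 mice.

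Kinesin motors, which slide, cap and transport along spindle microtubules, had 7 of 9 members called lower in mRNA and 6 in footprints. Kif23, the motor of the central spindle in cytokinesis, measured 181, 173, 176, 187 and 172 CPM of mRNA in vehicle sgScramble mice and 65.996 to 104 CPM (median 99.3) in the treated ones. The groups lay far apart (-0.998 ± 0.13, adjusted p = 5.59e-05), the smallest adjusted p among the members. Kif11, which pushes the spindle poles apart, measured 583, 616, 536, 577 and 565 CPM in vehicle and 188 to 368 CPM (median 352) in treated sgScramble mice, again without overlap (-0.95 ± 0.21, adjusted p = 0.00462). Kif20b, a motor of the midbody, measured 156, 167, 141, 153 and 157 CPM in vehicle and 54.4 to 107 CPM (median 86.9) in treated sgScramble mice (-0.94 ± 0.19, adjusted p = 0.00214). Its footprints, 52.6, 44.1 and 36.1 CPM in vehicle and 44.7, 43.4, 37.5 and 47.1 CPM in treated sgScramble mice, overlapped and were not called. Kif2c, which disassembles microtubule ends, and Kif18a, which dampens chromosome movements, fell in both assays (-0.64 in mRNA and -0.42 in footprints for Kif2c, -0.78 and -0.50 for Kif18a).
Footprints of Kif11, Kif18a, Kif23 and Kif2c were called higher in treated sgOgfod1 than in treated sgScramble mice. Kif11 gave 201, 186 and 179 CPM in vehicle sgScramble mice, then under treatment 138, 135, 114 and 141 CPM with sgScramble and 203 and 200.2 CPM with sgOgfod1. The treated sgOgfod1 mice exceeded the treated sgScramble mice by 0.60 ± 0.11 (adjusted p = 0.0127). Kif23 gave 49.8, 46.8, 45.3 and 46.8 CPM and 70.3 and 67.7 CPM in the treated groups (0.55 ± 0.10, adjusted p = 0.0135). Both treated sgOgfod1 values lay above all treated sgScramble values in each gene. Kif18a, at 13.3, 14.7, 11.6 and 12.9 CPM and 20.4 and 27.4 CPM in that order, had the largest difference of the 4, 0.86 ± 0.15 (adjusted p = 0.0123). Kif2c, at 34.3, 41.7, 34.6 and 36.1 CPM and 52.9 and 50.7 CPM, differed by 0.50 ± 0.12 (adjusted p = 0.0469), a call lost in 9 of the 12 fits without 1 library.

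**Figure D4:**
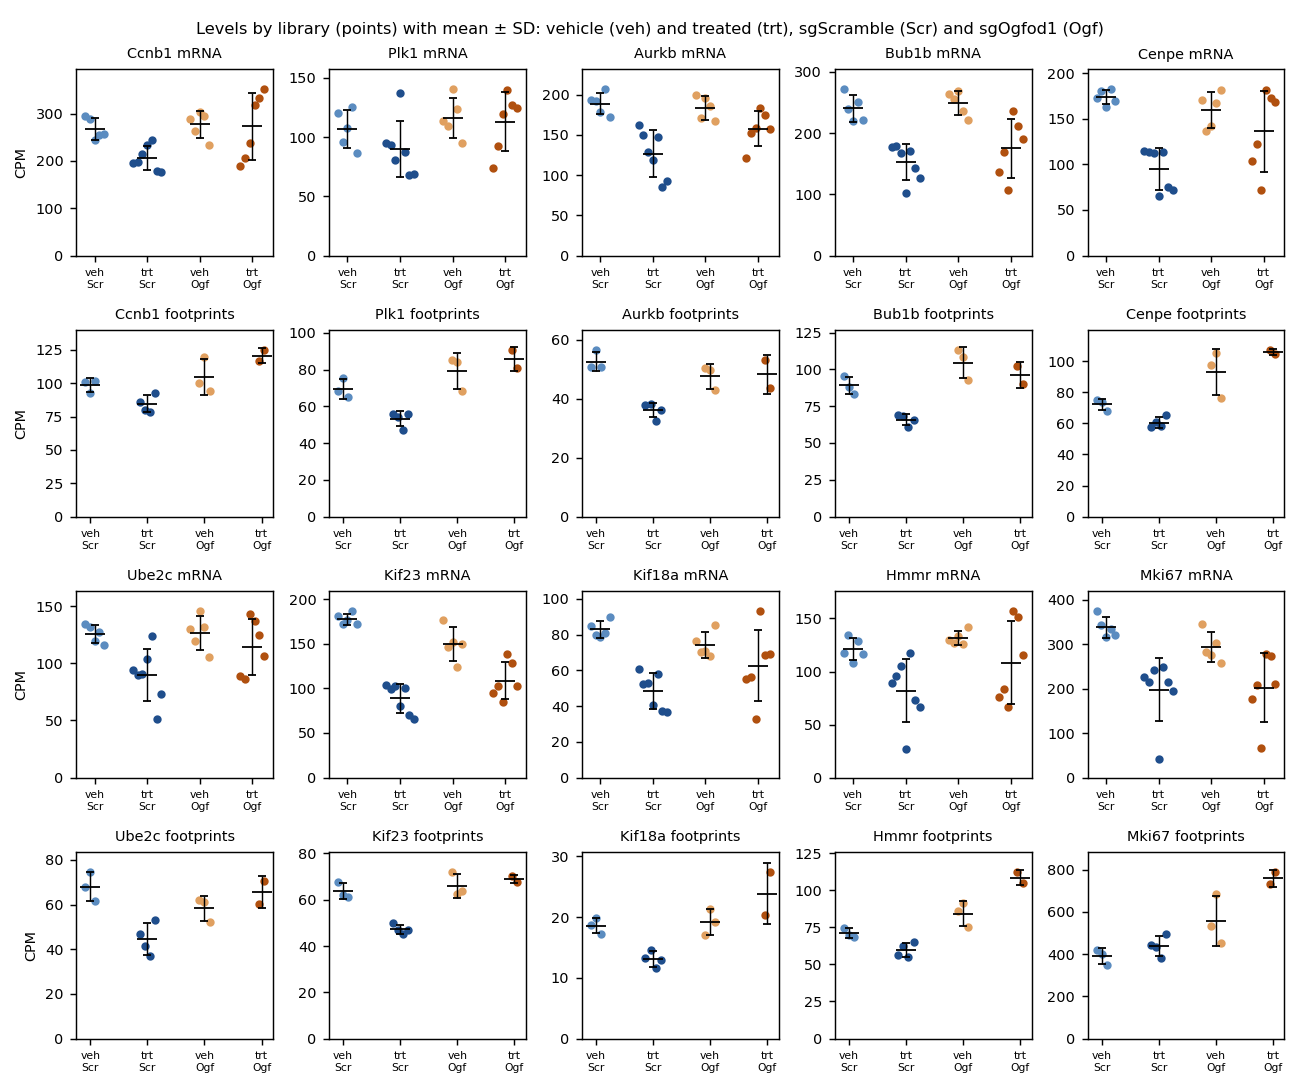
Level in each library (y axis, CPM, from 0; points) of 10 members by group (x axis), with mean ± SD bars, for mRNA and footprints. In footprints both treated sgOgfod1 libraries lie above all 4 treated sgScramble libraries in each of these 10 members. In mRNA the treated groups overlap. The 10 were picked by hand and include members called higher in this comparison. Of all 53 members, 43 separated this way in footprints, against 11.3% of all tested genes.

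Spindle assembly factors had 6 of 9 members called lower in mRNA and 3 in footprints. Ckap2l, a spindle pole protein, measured 177, 179.7, 163, 187 and 171 CPM of mRNA in vehicle sgScramble mice and 70.2 to 119 CPM (median 108) in the treated ones, without overlap (-0.86 ± 0.18, adjusted p = 0.00242). Prc1, which bundles the central spindle, measured 297, 288, 259.8, 286 and 284 CPM in vehicle and 88.1 to 191 CPM (median 185) in treated sgScramble mice (-0.90 ± 0.19, adjusted p = 0.00295). Aspm, a pole-focusing protein and the longest product in this role, measured 101, 108, 103, 109 and 108 CPM in vehicle and 13.2 to 61.2 CPM (median 47.9) in treated sgScramble mice. Its change of -1.30 ± 0.28 (adjusted p = 0.00329) was the largest fall in mRNA among the 53 members, and its footprint change of -0.21 was not called. Tpx2, which activates Aurora A on the spindle, fell from 198 ± 12.6 CPM (SD, n = 5) to 142 ± 24.5 CPM (SD, n = 7) in mRNA (-0.47 ± 0.13, adjusted p = 0.0213).
Of these 9 genes, Hmmr, Nusap1, Prc1 and Tpx2 were called higher in footprints of treated sgOgfod1 against treated sgScramble mice. Hmmr, a microtubule-associated partner of Tpx2, gave 74.6, 70.1 and 68.6 CPM in vehicle sgScramble mice, then under treatment 56.4, 62.3, 54.8 and 65.2 CPM with sgScramble and 112 and 105 CPM with sgOgfod1. It differed by 0.86 ± 0.11 (adjusted p = 0.00302) without overlap. Nusap1, a microtubule bundler, gave 52.9, 56.5, 48.4 and 57.2 CPM and 76.7 and 73.1 CPM in the treated groups (0.48 ± 0.10, adjusted p = 0.028). Prc1 gave 53.1, 52.8, 48.1 and 50.2 CPM and 71.3 and 74.8 CPM (0.52 ± 0.10, adjusted p = 0.0172), and Tpx2 gave 91.2, 106, 93.03 and 106 CPM and 141 and 149 CPM (0.55 ± 0.11, adjusted p = 0.0213). No treated sgScramble value reached a treated sgOgfod1 value in any of these 4 genes.

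In cytokinesis, Anln, an actin scaffold of the furrow, measured 149, 140.1, 142, 156 and 148 CPM of mRNA in vehicle sgScramble mice and 35.01 to 99.7 CPM (median 89.5) in the treated ones (-0.93 ± 0.22, adjusted p = 0.00586). Its footprints overlapped, with a change of -0.018 that was not called. Racgap1, the partner of Kif23 in centralspindlin, measured 207, 199, 172, 189 and 175 CPM of mRNA in vehicle and 102 to 150.2 CPM (median 121) in treated sgScramble mice. It fell without overlap in mRNA (-0.61 ± 0.13, adjusted p = 0.00343) and in footprints (-0.50 ± 0.10, adjusted p = 0.00313). Ect2, the exchange factor they recruit, was called in neither assay, at -0.62 and -0.34.

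Mki67, the proliferation antigen that coats mitotic chromosomes, behaved differently in the 2 assays. Its mRNA was 375, 343, 318, 334 and 321 CPM in vehicle and 41.7 to 249 CPM (median 216) in treated sgScramble mice, with every treated value lower, yet the change of -0.77 ± 0.30 was not called (adjusted p = 0.0932), and its lowest value was replicate 4. Its footprints were 421, 400.0 and 347 CPM in vehicle sgScramble mice, then under treatment 445, 435, 383 and 498 CPM with sgScramble and 729.8 and 788 CPM with sgOgfod1. The treated sgOgfod1 mice stood above all others, by 0.79 ± 0.14 over treated sgScramble (adjusted p = 0.0129).

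In sgOgfod1 cells the same treatment gave few called members. In mRNA, 1 member was called lower, against 4.18% of all genes, 0 were called higher, against 5.69%, and the median was -0.20. That member was Kif23, with 177, 146, 152, 124 and 150.2 CPM in vehicle and 95.1, 102, 84.5, 138, 129 and 103 CPM in treated sgOgfod1 mice (-0.47 ± 0.14, adjusted p = 0.0333). The call was lost in 8 of the 23 fits that left out 1 library. Replicates 1 to 3 of the treated mice lay lowest, and with treated libraries numbered below 17 alone 35 members were called lower (median -0.46), with 11.5% of genes called lower. With those numbered 17 and up alone 0 were called lower (median 0.036), with 1.85% of genes. In footprints, 1 member was called higher, against 4.65% of genes, and 0 lower, against 3.56%, with a median of 0.10. It was Cenpf, with 72.02, 89.1 and 64.9 CPM in vehicle and 109 and 103 CPM in treated sgOgfod1 mice (0.50 ± 0.15, adjusted p = 0.0427). This call was lost in 7 of the 12 such fits. Foxm1 had the lowest footprint change in sgOgfod1 cells, -0.56 ± 0.18, which was not called (adjusted p = 0.0598).

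Between the genotypes under vehicle, no member was called by edgeR in either assay. In mRNA 0 members were called, against 0.0978% of genes called higher and 0.0186% called lower, with 0 members at an unadjusted p under 0.05 and a median of -0.033. In footprints 0 were called, against 0.908% called higher and 0.902% lower, with 10 at an unadjusted p under 0.05. DESeq2 called 1 member in these footprints. In 41 members the vehicle footprint ranges overlapped, in 7 the sgOgfod1 mice were all higher, against 13.4% of all genes, and in 5 all lower, against 13.1%. The 7 were Cenpe, Hmmr, Incenp, Kif20b, Melk, Mki67 and Tpx2, and the 5 were Aurkb, Cdc25b, Cdca3, Cenpa and Cks2. Mki67 footprints were 451 to 685 CPM in vehicle sgOgfod1 and 347 to 421 CPM in vehicle sgScramble mice.

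Between the genotypes under treatment, footprints of the program were higher in sgOgfod1 cells. The test called 17 of 53 members higher and 0 lower, against 0.59% of genes called higher and 0.99% lower. All 53 fitted differences lay above 0, with a median of 0.47, and in 43 members both sgOgfod1 mice stood above all 4 sgScramble mice, against 11.3% of all tested genes. The 17 were Ccnb1, Plk1, Melk, Bub1b, Cenpe, Cenpf, Nuf2, Spc25, Kif11, Kif18a, Kif23, Kif2c, Hmmr, Nusap1, Prc1, Tpx2 and Mki67. With 2 mice in the sgOgfod1 group, single libraries weighed heavily. Without treated sgOgfod1 replicate 4 the count was 4, without replicate 5 it was 11, and without treated sgScramble replicate 1 or 3 it was 11 or 9. Cenpe, Hmmr and Mki67 kept their calls with each of the 12 libraries left out in turn. The calls of Ccnb1, Nusap1, Spc25 and Tpx2 were lost in 6, 5, 4 and 4 of these fits. Under vehicle, every sgOgfod1 footprint value of Cenpe, Hmmr, Mki67, Melk and Tpx2 stood above every sgScramble value, without a call. Such separation under vehicle was upward in 7 of the 53 members, against 13.4% of all genes. It was downward in 5, against 13.1%. Both treated sgOgfod1 footprint mice carry library numbers above 17, while treated sgScramble mice have 2 below 17 and 2 from 17 up. With those numbered 17 and up alone, 1 member was called higher, with 0.00558% of genes, and the median was 0.52. Of the 10 leukemia markers, 2 were called lower in the same comparison, Cd34 (-2.77 ± 0.52, adjusted p = 0.0319) and Meis1 (-0.58 ± 0.13, adjusted p = 0.028), and 1 higher, Hoxa10 (0.97 ± 0.19, adjusted p = 0.0176). Of 14 neutrophil, 13 macrophage and 7 erythroid markers tested, 0 were called, and each summed level overlapped between the treated groups. The part of any of these markers in the difference was not tested.

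In mRNA under treatment, 0 of 53 members were called between the genotypes, against 0.265% of genes called higher and 0.126% lower. Fitted differences were above 0 in 51 members (median 0.34), 28 had an unadjusted p under 0.05, and DESeq2 called 6. The 2 genotypes overlapped in all 53 members. The mRNA result followed the library numbers. With treated libraries numbered 17 and up alone, 36 members were called higher in sgOgfod1 (median 0.65), against 2.25% of genes. With those below 17 alone 0 were called higher (median -0.16), against 0.664%. With only the mice that have a footprint library 17 were called higher (median 0.41), against 1.09%. Footprints of treated sgOgfod1 replicates 1 to 3 were not analysed here. What sets the library numbers apart was not tested.

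The difference between these treatment effects was itself tested as an interaction. In mRNA 0 members were called, with 0% of genes called, 11 at an unadjusted p under 0.05 and a median of 0.35. In footprints 0 were called, against 0.00547% of genes called higher and 0.0601% lower, with 29 at an unadjusted p under 0.05, a median of 0.41 and all 53 above 0. DESeq2 called 1 member there.

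Translation efficiency, the change in footprints relative to mRNA of the same mice, was fitted as an interaction of assay and group with a term for each of 12 mice. Under treatment of sgScramble cells, 3 members were called higher and 0 lower, against 0.419% of 28606 genes called higher and 0.51% lower, and the median was 0.06. Mki67 rose by 0.71 ± 0.13 (adjusted p = 0.0135), Kif20b by 0.73 ± 0.16 (adjusted p = 0.0287) and Aspm by 0.77 ± 0.17 (adjusted p = 0.0444). For these genes mRNA stood lower under treatment while footprints changed little. Leaving out single mice in turn removed the call of Mki67 in 5, of Kif20b in 7 and of Aspm in 8 of 12 fits, and without the term for the mouse 0 members were called. Between genotypes under vehicle 0 members were called, against 0.0385% called higher and 0.021% lower, with 8 at an unadjusted p under 0.05.

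The members with called translation efficiency are among the longest. Over the 53 members, the mRNA change under treatment in sgScramble cells went with coding length at a Spearman's rho of -0.555, against -0.259 over 14335 protein-coding genes. The footprint change went the other way, at 0.294, against -0.042 over 11481 genes. These correlations are across genes, which share libraries and are not independent replicates. The 11 members of 3000 coding bases or more (Anln, Aspm, Bub1, Bub1b, Cenpe, Cenpf, Espl1, Kif11, Kif20b, Kif4 and Mki67) had a median mRNA change of -0.86, and 7 of them were called lower. The 42 shorter members had a median of -0.49, with 23 called. In footprints the order turned, with medians of -0.20 and -0.34. Their median change in translation efficiency was 0.37 for the long and 0.024 for the short members. Between genotypes under vehicle, where no group was treated, footprint differences of the members went with coding length at 0.697, against 0.274 over all 11481 genes, and translation efficiency at 0.701. With a trend on exon length removed from each library, 30 members were called lower in mRNA of treated sgScramble mice, against 4.55% of genes. In their footprints 20 were called lower, against 5.98%. In footprints of treated sgOgfod1 against treated sgScramble mice 19 were called higher, against 0.634%. A trend on coding length was not removed.

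**Figure D5:**
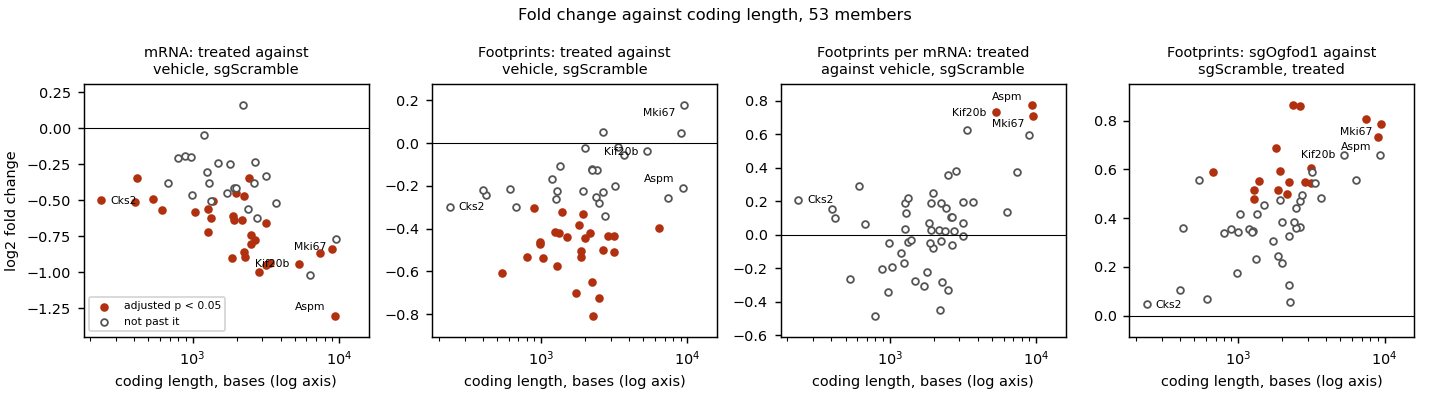
Log2 fold change (y axis) against coding length (x axis, bases, log scale) of the 53 members for treatment in sgScramble mRNA, footprints and translation efficiency, and for sgOgfod1 against sgScramble in treated footprints; filled points have an adjusted p under 0.05. Longer members lie lower in mRNA (rho -0.555) and higher in translation efficiency (rho 0.444) and in the genotype footprints (rho 0.57).

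Around the members, 95 further genes were examined by role, covering mitosis, the DREAM and MuvB regulators and brakes on G2/M entry. Of these, 94 were tested in mRNA and 92 in footprints. In treated sgScramble mice 26 were called lower and 7 higher in mRNA (median -0.29), and 16 lower and 3 higher in footprints (median -0.17). Of all tested genes, 4.34% were called lower and 8.6% higher in mRNA, and 7.44% and 8.12% in footprints. In neither assay were higher calls more frequent than among all genes. Condensin and chromosome structure genes had 5 of 12 lower and 1 higher (Pttg1, securin) in mRNA. Among the lower ones was Top2a, the topoisomerase that untangles sister chromatids and a target of doxorubicin (-1.05 ± 0.24, adjusted p = 0.0059). Other kinetochore genes had 7 of 22 lower and 1 higher, and other G2/M transcripts 12 of 25 lower and 1 higher. The exception among the last was Psrc1, a p53-induced spindle protein, which rose in mRNA (1.60 ± 0.27, adjusted p = 0.000503) and in footprints (1.26 ± 0.24, adjusted p = 0.00305). Of 15 subunits and regulators of the anaphase-promoting complex, 0 were called in mRNA and 5 were lower in footprints. Of 9 tested genes that brake G2/M entry, 4 rose and 1 fell in mRNA. Cdkn1a (p21), the inhibitor of cyclin-dependent kinases, rose by 2.06 ± 0.37 in mRNA (adjusted p = 0.000762) and by 1.15 ± 0.23 in footprints (adjusted p = 0.00659). Gadd45a, a stress protein that inhibits Cdk1, rose by 1.57 ± 0.25 and Ccng1, a p53 target, by 1.38 ± 0.23 in mRNA. Cdkn1a, Gadd45a and Ccng1 were also called higher in mRNA of treated sgOgfod1 mice, by 1.86 ± 0.37, 1.42 ± 0.25 and 1.10 ± 0.23. In footprints of treated sgOgfod1 mice none of these was called (adjusted p = 0.06, 0.209 and 0.161). In footprints of treated sgScramble mice Ccng1 was called higher (1.22 ± 0.16) and Gadd45a was not called (0.41 ± 0.24, adjusted p = 0.264).

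Genes of DNA replication and the G1/S transition, 40 in number, served as the neighbouring phase. In treated sgScramble mice 3 were called higher and 1 lower in mRNA (median -0.027), against 8.6% and 4.34% of all genes. In footprints 2 were higher and 4 lower (median -0.057), against 8.12% and 7.44%. Between the genotypes under treatment 0 of the 40 were called in footprints (median 0.059). Of the 92 genes of the further lists above tested there, 7 were called higher in sgOgfod1 mice and 0 lower, against 0.59% and 0.99% of all genes. They were 3 of 12 condensin and chromosome structure genes (Smc2, Ncapg and Top2a), 3 of 25 other G2/M transcripts (Kif14, Kif15 and Parpbp) and 1 of 22 other kinetochore genes (Kntc1). In the anaphase-promoting complex, the DREAM and MuvB regulators and the brakes on G2/M entry 0 were called. No test compared the lists with each other.

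Levels per kilobase ranked the members over a wide range in vehicle sgScramble cells. In mRNA per kilobase of exon, Cks2 (142 ± 24.4 CPM per kb, SD, n = 5), Ccnb2 (134 ± 14.7) and Ccna2 (115 ± 9.11) came highest, and the spread of each overlapped that of the next. Cenpf (7.65 ± 0.118), Cdc25c (7.27 ± 0.505) and Espl1 (5.51 ± 1.05) came lowest. In footprints per kilobase of coding sequence, Cks2 (412 ± 40.6, SD, n = 3) stood well above Cdk1 (133 ± 3.99) and Ube2c (127 ± 11.9), which did not differ beyond their spread. Foxm1 (4.27 ± 0.383), Espl1 (4.21 ± 0.443) and Aspm (3.92 ± 0.173) came lowest. Of the 53 members, 16 share exon bases with another gene, most on the opposite strand (Kif20a with Cdc23 over 977 bases, Kif4 with Pdzd11 over 683, Prc1 with Rccd1 over 670), and 4 have a named pseudogene (Ccnb1, Ccnb2, Kif22 and Kif4). Smart-seq2 does not mark the strand of a transcript. How strand and multiply mapped reads were handled in counting is not given in the sources used here, so the levels of these members are uncertain.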

How the data were processed

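Smart-seq2 mRNA libraries of 23 mice and ribosome footprint libraries of 12 of them were analysed. The values are raw read counts per Ensembl gene, deposited as 1 table per assay; per the submitters' processing notes they were made with cutadapt, Bowtie2, STAR, SAMtools and featureCounts on GRCm38 (mm10), and versions, strand setting and treatment of multiply mapped reads are not given in the sources used here. Columns were matched to mice by the library numbers in the labels. GENCODE M21 named 55227 of 55487 genes and 260 kept an identifier.

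Counts were tested with edgeR 4.0.16 (R 4.3.3; filterByExpr, TMM, robust quasi-likelihood) over all 4 groups of an assay, leaving 19 (mRNA) and 8 (footprint) residual degrees of freedom, and p-values were adjusted over all genes by Benjamini-Hochberg. SEs were derived from the F statistic. The test was first tried on simulated counts. Their spread in mRNA was set below that of the data, so recovery in that trial does not carry over to these mRNA libraries. Replicate libraries of a group differed by more than sampling noise (chi-square per degree of freedom at least 19.6 in mRNA and 6.84 in footprints), so none was counted as a repeat. Alternatives were DESeq2 1.42.0, RLE scaling, no filter, protein-coding genes alone, an exon-length offset, a replicate block, library-number splits and single libraries left out.

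The members and all gene lists were chosen with earlier results of these data known. Members were given in full by a set rule: in each of 10 roles the 2 with the smallest p for treatment in sgScramble mRNA, and every member called in a genotype, interaction or translation efficiency comparison or against the members' median direction; Foxm1, Gtse1 and others are given by single values. Genes of further pathway lists were named by the smallest p, and others were chosen after their values were seen.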

Additional observations from a re-analysis of the deposited data

Results flagged for a closer look

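In 170 groups of 4 to 10 libraries, each for a named member or for the sum over all members, 4 held a library far from the others by Dixon's criterion; about 1 in 20 groups would by chance. Cks2 footprints in treated sgScramble mice were highest in replicate 2, at 101.9 CPM, with the next at 74.2 CPM. The remaining 3 all fell on the mRNA library of treated sgScramble replicate 4, which also had the highest macrophage marker sum. Mki67 was lowest there, at 41.7 CPM, with the next at 195 CPM. Nek2 was lowest there, at 24.7 CPM, with the next at 52.4 CPM. Plk1, in contrast, was highest there, at 137 CPM, with the next at 94.7 CPM. The macrophage sum's part in these values was not tested.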

How the results depend on the processing

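Counts of called members were recomputed under 103 alternatives other than leaving out a library, and 68 stayed within 1.5 times the reported count. Treatment in sgScramble mRNA gave 18 lower with the replicate block, 10 with treated libraries numbered below 17 alone and 10 without the 3 libraries richest in macrophage markers. Treatment in sgOgfod1 mRNA gave 5 lower by DESeq2, 2 with protein-coding genes alone, 0 with the length offset, 0 with no filter, 0 with footprint mice alone, 0 with the replicate block, 0 with numbers 17 and up alone, 35 with numbers below 17 alone, 7 without the macrophage-rich libraries and 6 without treated sgScramble replicate 4 and treated sgOgfod1 replicate 3. Genotype in treated mRNA gave 6 higher by DESeq2, 1 with RLE scaling, 3 with the length offset, 17 with footprint mice alone, 1 with protein-coding genes alone, 1 with a term for library number, 36 with numbers 17 and up alone and 2 without that same pair of libraries. Genotype in treated footprints gave 28 higher with no filter, 27 with protein-coding genes alone, 1 with the replicate block and 1 with numbers 17 and up alone. The footprint interaction gave 1 by DESeq2 and 2 with no filter, and genotype in vehicle footprints gave 1 by DESeq2 and 2 with no filter. Translation efficiency gave 6 higher with RLE scaling, 5 with no filter, 7 with protein-coding genes alone and 0 with no replicate block for treatment in sgScramble, and 3 with no filter and 1 with protein-coding genes alone for genotype under vehicle. The cause of these shifts was not tested.

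With single libraries left out, counts ranged over 22 to 35 (treatment in sgScramble mRNA), 0 to 7 (treatment in sgOgfod1 mRNA), 0 to 8 (genotype in treated mRNA), 15 to 26 (treatment in sgScramble footprints), 4 to 24 (genotype in treated footprints), 0 to 2 (genotype in vehicle footprints), 0 to 5 (translation efficiency under treatment) and 0 to 1 (translation efficiency, genotype under vehicle). They stayed at 0 for both interactions, genotype in vehicle mRNA and members called lower in sgOgfod1 footprints. Among single members, 1323 of 1623 alternatives kept direction and side of the threshold, 300 kept direction alone and 0 reversed. Of the fully described calls, 6 of 25 in sgScramble mRNA, 9 of 17 in sgScramble footprints and 14 of 17 in genotype footprints were lost in at least 1 such fit. Replicate numbers did not pair mice across groups: correlations of same-numbered libraries ran from -0.647 to 0.462 in mRNA (9 of 31 above 0.1) and -0.109 to 0.116 in footprints (1 of 11). Own-number libraries correlated best in 2 of 23 and 1 of 12 libraries. Footprint precision is limited by member counts as low as 28 and by 2 treated sgOgfod1 mice.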
